A study of Homo sapiens with 12 samples.

Results

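The genes described here are 44 protein coding genes that span about 300 kb or more of the genome and are known to be transcribed in mesenchymal cells. They were listed by name for their length, after long genes had been seen to be lower in these cells with the inhibitor and between the controls, and DIP2C was picked for its fall. The inhibitor and control comparisons therefore chose the list and are given below as descriptions. Where members are counted past a threshold in them, the count marks values that are large for their error and is no test of the list. All 44 were found among the 40490 gene identifiers of the files, and 43 of them were among the 16468 genes with enough signal to be tested. NAALADL2, a peptidase-like gene, was below the filter, with 1.98, 7.55 and 0 in inhibitor libraries, 1.57, 1.60 and 5.93 in inhibitor control libraries, 1.61, 0.068 and 9.24 in mimic libraries and 3.01, 2.58 and 17.6 in mimic control libraries.

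The RNA-seq libraries came from SW1353, an established cell line from a human chondrosarcoma that stands in for cartilage cells in culture. The cells were transfected at 50 nM with a miR-455 inhibitor, an inhibitor control, a miR-455 mimic or a mimic control and harvested at 48 hours, with 3 libraries in each group. A mimic is a synthetic double of a microRNA, and an inhibitor is an antisense oligonucleotide against it. All groups therefore share the transfection, no untransfected cells are among the samples, and all values come from a single cell line. Values are normalised signal, the estimated read count of a gene divided by a size factor of its library, and were not divided by transcript length. Changes are log2(value + 0.5) ± SE from a model of all 12 libraries, and SDs are over the 3 libraries of a group.

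As background, the transcribed part of a very long gene is nearly all intron, so RNA polymerase must travel for hours before a transcript is complete, and elongation, splicing and premature ending of transcription act on it over a long distance. Several such genes, FHIT and WWOX among them, lie at common fragile sites, regions that break when DNA replication is stressed. Many code for large scaffolds, membrane receptors and cytoskeletal proteins that mesenchymal and nerve cells use. MicroRNAs act on the spliced messenger RNA, mostly through matches to their seed in the 3′ UTR.

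Library totals lay between 10.97 and 12.02, in units of 1e6. Mitochondrially encoded genes took 6.52% to 7.84% of the inhibitor libraries, 6.45% to 8.08% of the inhibitor control libraries, 6.09% to 9.43% of the mimic libraries and 8.21% to 9.93% of the mimic control libraries, and the part of this share in the results was not tested. Mimic replicate 3 stood apart from the other mimic libraries in the measures given below. Of 16 mesenchymal markers, 14 were tested, and the summed signal of the list was 159202 to 191481 in a library, while THY1 was under 5 in every library. COL2A1, a collagen that defines cartilage cells, was at 0 in every library, while 3 of the 6 cartilage markers were tested. The summed cartilage list was 1247 to 1358 in inhibitor libraries and 1061 to 1219 in inhibitor control libraries. With the mimic it was 1311 to 1450, and 1149 to 1238 with the mimic control. Of the skeletal muscle markers MYOD1 was at 0 and MYOG, ACTA1 and CKM were under 5 in every library, and of the epithelial markers EPCAM and GRHL2 were under 5. Markers of other cell types that passed the threshold are given beside the results. The summed neural list was 160 to 189 in inhibitor libraries and 199 to 295 in inhibitor control libraries. With the mimic it was 140 to 199, and 202 to 243 with the mimic control. The summed blood list was 3020 to 3961 in inhibitor and 2826 to 2917 in inhibitor control libraries. It was 2518 to 4577 in mimic and 4578 to 4935 in mimic control libraries. The part of the cartilage, neural and blood lists in the results was not tested.

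The members spanned 317 kb (EXT1) to 2242 kb (DMD), with a median of 718 kb. Their longest protein coding transcript had a median of 7.18 kb, so exons made up a median of 0.902% of the span, against 10.2% in the other 14244 tested protein coding genes. The longest intron in any basic protein coding transcript of a gene, not only its longest one, lay between 54.9 kb in THADA and 1096 kb in WWOX. By chromosome, 9 members lay on chromosome 3, 5 each on chromosomes 7 and 8, 4 on chromosome 1, and the rest on 10 other chromosomes. FHIT (chr3:59749310-61251459, minus strand, GRCh38) and PTPRG (chr3:61561569-62297613, plus strand) are close neighbours. Just inside the span limit lay EXT1 and FNDC3B at 317 and 362 kb, and just outside it ARMH4 and PCBP3 at 298.4 and 298.8 kb. The inhibitor changes of these 4 genes were log2 -0.012, -0.34, -0.12 and -0.046 in that order.

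The mature miR-455-3p is shown with its seed, bases 2 to 8, in capitals, because its matches bear on which members the microRNA could bind directly. It is encoded at chr9:114209487-114209507 on the plus strand (RefSeq, GRCh38.p14).
hsa-miR-455-3p: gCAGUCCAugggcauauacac

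For each gene, its longest 3′ UTR among basic protein coding transcripts was scanned for TGGACTG followed by A (8mer) and for TGGACTG alone (7mer-m8), on the transcribed strand. Of the 44 members, 5 held such a match (11.4%), against 13.1% of 13910 tested protein coding genes and 22.4% of 585 of those that span 300 kb or more. The 5 genes were DIP2C, LPP, CUX1, FAF1 and TCF4. A match is a description of the letters, not a binding site. A further 11 members held a shorter match of 6 bases or 6 bases followed by A. The stretches around 1 match in each gene are given below with the match in capitals, as read from the GENCODE 29 transcripts.
DIP2C, 8mer: ggctcaaaagagttggTGGACTGAgattga
LPP, 8mer: tgtaaactaaggatttTGGACTGAgatttc
CUX1, 8mer: tcttgtcttgttgaaaTGGACTGActgcta
FAF1, 7mer-m8: tactcccttgtgttctTGGACTGctggat
TCF4, 7mer-m8: ttttttcgtttttggtTGGACTGtttgca

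These stretches lie, on GRCh38, at chr10:274981-275010 (minus strand, DIP2C), chr3:188875884-188875913 (plus, LPP), chr7:102256235-102256264 (plus, CUX1), chr1:50439019-50439047 (minus, FAF1) and chr18:55222459-55222487 (minus, TCF4). All 5 are within 3′ UTR exons. LPP and CUX1 each held a 7mer-m8 as well. The 3′ UTR of DIP2C had 3135 bases and that of LPP 16192 bases.

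Taken as a median, the long genes differed between the groups, though single members did not all follow it. The median deviation of the 43 tested members from their own 12-library means was log2 -0.40, -0.23 and -0.30 in inhibitor libraries 1 to 3, against -0.064, -0.11 and -0.035 in inhibitor control libraries. It was 0.29, 0.25 and 0.10 in mimic libraries, against 0.16, 0.17 and 0.19 in mimic control libraries. The inhibitor libraries were thus the lowest, the mimic and mimic control libraries the highest, and the inhibitor control libraries lay between them with no overlap. As means ± SD (n = 3 each) these were -0.31 ± 0.083 with the inhibitor, -0.070 ± 0.037 with the inhibitor control, 0.21 ± 0.098 with the mimic and 0.17 ± 0.020 with the mimic control. Since the list was chosen for this, no test is given. Whether fewer cells expressed these genes or each cell held less of their RNA cannot be told apart in bulk RNA.

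Genes that span under 10 kb ran the other way. Their medians were 0.17, 0.12 and 0.15 in inhibitor libraries, against 0.10, 0.067 and 0.058 in inhibitor control libraries. They were -0.13, -0.14 and 0.066 in mimic libraries, against -0.089, -0.10 and -0.14 in mimic control libraries. Mimic replicate 3 thus had both the lowest long genes and the highest short genes of the mimic group. The other 550 tested protein coding genes of 300 kb or more, which are not in the list but belong to the long genes whose fall prompted it, had medians of -0.25, -0.20 and -0.19 in inhibitor libraries, against -0.040, -0.096 and 0.0027 in inhibitor control libraries. These also followed the order of the listed genes in the mimic libraries, at 0.25, 0.15 and 0.024, against 0.14, 0.14 and 0.19 in mimic control libraries.

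**Figure D1:**
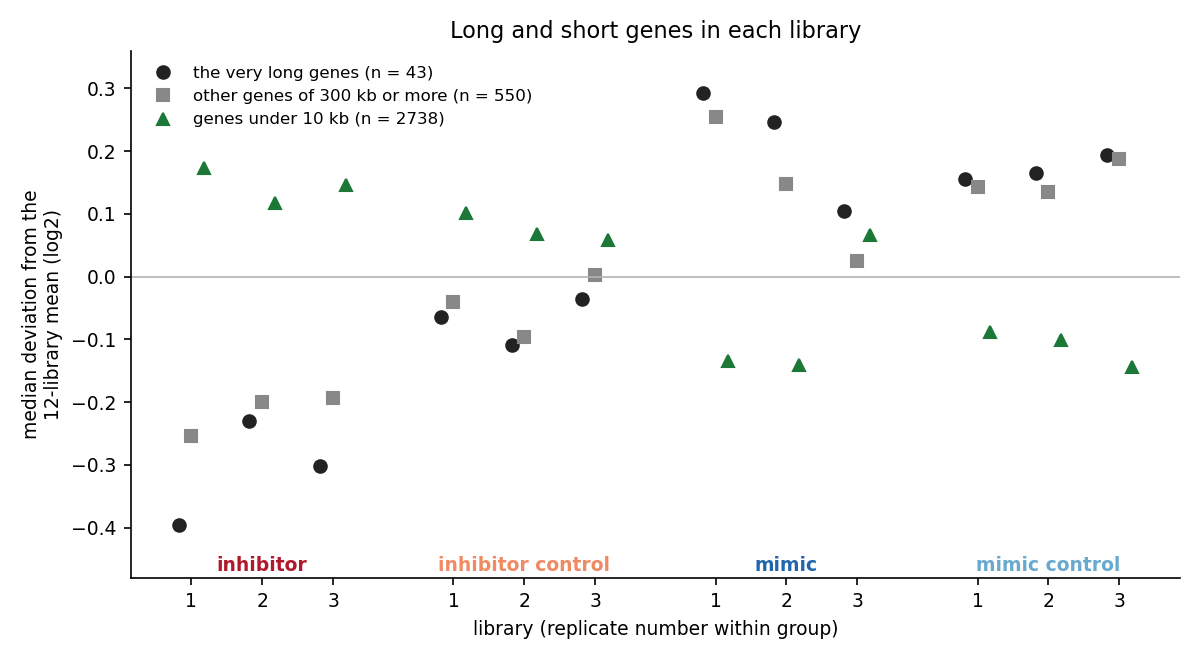
Median deviation (log2) from the 12-library mean of the 43 very long genes (circles), the 550 other tested genes of 300 kb or more (squares) and the 2738 genes under 10 kb (triangles), in each of the 12 libraries. The very long genes lie between -0.40 and -0.23 in the inhibitor libraries and between 0.10 and 0.29 in the mimic libraries, and mimic replicate 3 has the lowest long genes of its group.

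With the inhibitor, most members were lower than with the inhibitor control. The median change of the 43 was log2 -0.32, against 0.025 for all tested genes, and it was -0.26 without DIP2C. Of the 43, 35 had a negative change (81.4%), against 46.2% of all tested genes. By limma with Benjamini-Hochberg adjustment over all genes, 8 were past the 0.05 threshold downwards (18.6%), where 0.783% of all tested genes were, and 1 was past it upwards, where 0.765% were. In 15 members all 3 inhibitor libraries were lower than all 3 inhibitor control libraries (34.9%), where 10.9% of all genes were, and in 3 members all were higher, where 14.4% were. These shares describe a list chosen on this comparison, and nothing is read from them. Inhibitor replicate 1, inhibitor control replicate 1 and inhibitor control replicate 3 were each left out on their own. In each case 5 members were past the threshold, all downwards (MAGI1, FTO, PTPRG, DIP2C and CDH13). With array weights 14 were past it downwards and 1 upwards. The shares of all tested genes are given for the main fit only, so these counts have no background beside them. The epithelial marker CLDN4 passed the threshold upwards in the same comparison (log2 1.65), the summed epithelial signal was 51.6 to 114 in inhibitor libraries and 24.0 to 35.8 in inhibitor control libraries, and its part in the result was not tested. The summed signal of the mesenchymal markers was 179713 to 187367 in inhibitor libraries and 160847 to 174073 in inhibitor control libraries, with 0 of the 14 past the threshold by limma, and its part was not tested either.

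DIP2C, a gene of the disco-interacting protein family (chr10:274190-689668, minus strand), had the lowest change. It had 365, 414 and 353 in inhibitor libraries, against 1019.8, 949.7 and 1002 in inhibitor control libraries. It had 1116, 1072 and 1231 in mimic libraries, against 1189, 1114 and 1119.9 in mimic control libraries. The inhibitor libraries thus stood at a ratio of 0.381 (log2 -1.39 ± 0.086), far below the other 9 libraries, the lowest of which was 949.7. DIP2C is a member with a full 8mer (shown above). It was picked for its fall with the inhibitor, and whether the microRNA acts on it was not tested.

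Among the receptor phosphatases and the cadherin, PTPRG, a receptor tyrosine phosphatase with a carbonic anhydrase-like domain, had 729.9, 668 and 707 in inhibitor libraries, against 1216, 1154 and 1219.8 in inhibitor control libraries (log2 -0.77 ± 0.10). CDH13, a cadherin held in the membrane by a lipid anchor, had 558, 669 and 604 in inhibitor libraries, against 901, 865 and 1001 in inhibitor control libraries (log2 -0.60 ± 0.092). Neither gene had any overlap between the groups. PTPRK and PTPRM, receptor phosphatases of another subfamily that bind their like on neighbouring cells, had changes of log2 -0.026 ± 0.13 and log2 -0.13 ± 0.093, and their groups overlapped.

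The scaffolds of cell junctions and polarity include pairs of related genes. MAGI1 had 119, 120.0 and 138 in inhibitor libraries, against 209, 215 and 215 in inhibitor control libraries (log2 -0.76 ± 0.12), with narrow spreads in both groups. Its relative MAGI2 had 41.8, 17.3 and 20.2 in inhibitor libraries, against 109, 41.99 and 32.2 in inhibitor control libraries (log2 -1.10 ± 0.59), so its groups overlapped and its SE was the largest of the list. PARD3B had 199, 239 and 230.3 in inhibitor libraries, against 408, 309 and 342 in inhibitor control libraries (log2 -0.66 ± 0.13). PARD3, the cell polarity scaffold it resembles, had the highest signal of all members, and its 3076, 3297 and 3858 in inhibitor libraries overlapped 3208, 3449 and 3801 in inhibitor control libraries (log2 -0.035 ± 0.093). The difference between the genes of a pair was not tested.

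Of the 5 fragile site genes, WWOX, an oxidoreductase, had 221, 212 and 219.8 in inhibitor libraries, against 397, 287 and 359 in inhibitor control libraries (log2 -0.66 ± 0.13). FHIT, a hydrolase of dinucleotides, was low, with 2.54, 8.18 and 6.90 in inhibitor libraries, against 5.25, 10.6 and 11.1 in inhibitor control libraries (log2 -0.64 ± 0.55). The FHIT groups overlapped, and the change was close to its SE. DPYD, which breaks down pyrimidines, and IMMP2L, a peptidase subunit of the mitochondrial inner membrane, had changes of log2 -0.41 ± 0.13 and log2 -0.58 ± 0.24, and of the pair the DPYD groups did not overlap.

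Of the dystrophin family, DMD, dystrophin (chrX:31097677-33339441, minus strand), had 45.4, 74.8 and 86.7 in inhibitor libraries, against 76.99, 65.7 and 75.5 in inhibitor control libraries (log2 -0.12 ± 0.21). Its groups overlapped although it is the longest member. UTRN, utrophin, had 64.7, 67.4 and 66.8 in inhibitor libraries, against 85.5, 95.96 and 87.5 in inhibitor control libraries (log2 -0.43 ± 0.24), with no overlap. LPP, a LIM protein of focal adhesions, had 35.5, 68.6 and 40.1 in inhibitor libraries, against 77.6, 59.5 and 79.999 in inhibitor control libraries (log2 -0.63 ± 0.24). The LPP groups overlapped by inhibitor replicate 2. DIAPH3, an actin-nucleating formin, had a change of log2 -0.43 ± 0.14, TRIO, a guanine nucleotide exchange factor, log2 -0.16 ± 0.13, and ASAP1, a GTPase-activating protein for Arf, log2 0.078 ± 0.12.

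Among genes of transcription, chromatin and RNA, SMYD3, a lysine methyltransferase (chr1:245749342-246507312, minus strand), had 1308, 1210.2 and 1461 in inhibitor libraries, against 1842, 1869 and 2038 in inhibitor control libraries (log2 -0.53 ± 0.11). FTO, an RNA demethylase, had 554, 624 and 570.0 in inhibitor libraries, against 907, 939 and 898 in inhibitor control libraries (log2 -0.65 ± 0.09). Neither gene had overlap. The transcription factors FOXP1, TCF4, CAMTA1 and CUX1 and the RNA-binding protein RBMS3 had changes between log2 -0.15 and 0.075, and the groups overlapped in each.

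The genes of genome maintenance and of the spindle checkpoint held the 1 member past the threshold upwards. MAD1L1, a spindle checkpoint protein, had 707, 610.3 and 724 in inhibitor libraries, against 462, 499 and 443 in inhibitor control libraries (log2 0.54 ± 0.10). RAD51B, a recombination protein, had 106, 101 and 91.4 in inhibitor libraries, against 87.9, 54.6 and 82.6 in inhibitor control libraries (log2 0.43 ± 0.19). Both were higher in all 3 inhibitor libraries, while SPIDR and BABAM2, both DNA repair proteins, had changes of log2 -0.32 ± 0.18 and log2 -0.05 ± 0.14. PRKG1, a cGMP-dependent kinase, was the other member without overlap on the high side, at 12.2, 14.2 and 9.96 in inhibitor libraries, against 4.98, 6.45 and 5.36 in inhibitor control libraries (log2 1.04 ± 0.45), and its signal was low throughout.

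The remaining members had changes between log2 -0.63 and 0.31. Of the 5 vesicle traffic genes, TBC1D5, EXOC4 and TRAPPC9 were lower without overlap (log2 -0.63 ± 0.15, log2 -0.36 ± 0.11 and log2 -0.55 ± 0.20 in that order), and VPS13B and NBEA overlapped. GMDS, an enzyme of GDP-fucose synthesis, was lower without overlap (log2 -0.56 ± 0.14). EXT1, a polymerase of heparan sulfate, had 2490.3, 2643 and 2601 in inhibitor libraries, against 2605, 2537 and 2657 in inhibitor control libraries (log2 -0.012 ± 0.082). FNDC3B, FBXL17, FAF1, PRKCA and THADA overlapped, and THADA had the highest change of these (log2 0.31 ± 0.25).

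**Figure D2:**
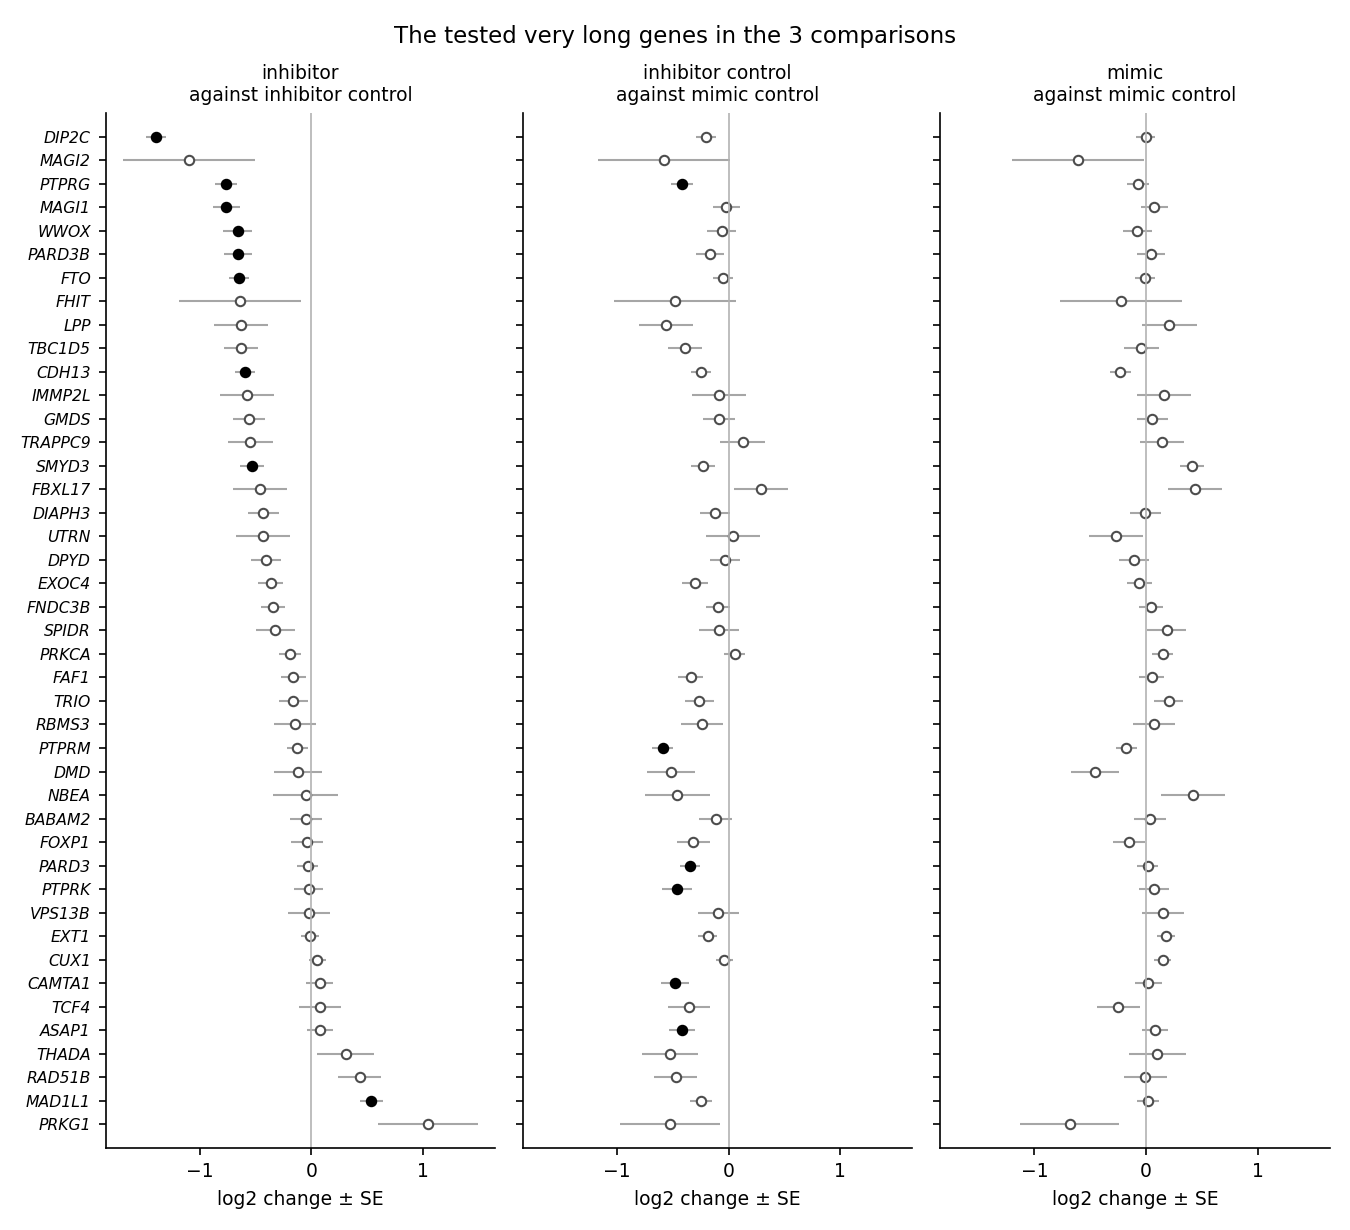
Fitted log2 change ± SE of each of the 43 tested very long genes (rows, ordered by the inhibitor change) in the 3 comparisons. Filled points are past an adjusted p of 0.05 over all genes: 9 in the inhibitor comparison, 6 in the comparison of the controls and 0 in the mimic comparison. The inhibitor and control comparisons chose the list, so their filled points are a description.

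The inhibitor control against the mimic control compares cells that received different control oligonucleotides, and it also carries any difference between the arms of the experiment. It shares the inhibitor control libraries with the comparison above, so a high or low inhibitor control value moves the comparisons in opposite directions. The median change of the members was log2 -0.25, against -0.019 for all tested genes, and 39 of 43 were negative (90.7%), against 52.1% of all genes. As a description of a list chosen on it, past the threshold downwards were 6 members (14.0%), where 5.38% of all genes were, and upwards 0, where 4.74% were. In 20 members all 3 inhibitor control libraries were lower than all 3 mimic control libraries (46.5%), where 21.6% of all genes were, and in 0 members were all higher, where 19.7% were. Without any 1 of the 6 libraries of this comparison, 1 or 2 members were past it (PTPRM in each case). With these 6 libraries alone there were 15, all downwards. The shares of all genes above are from the main fit and are not given for these settings. CD68, a marker of the blood list, passed the threshold downwards here, with the summed blood list at 2826 to 2917 in inhibitor control libraries and 4578 to 4935 in mimic control libraries, and its part in the result was not tested. Of the 14 mesenchymal markers 3 passed it upwards, the collagens COL1A1, COL1A2 and COL5A1 (log2 0.79, 0.31 and 0.54 in that order), and 0 downwards. The summed mesenchymal signal was 160847 to 174073 in inhibitor control libraries and 159202 to 176664 in mimic control libraries, and its part was not tested.

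PTPRM, a receptor phosphatase, had 393, 390.2 and 404 in inhibitor control libraries, against 594, 574 and 621 in mimic control libraries (log2 -0.59 ± 0.093). PTPRK had 194, 197 and 229 in inhibitor control libraries, against 256, 289.9 and 310.5 in mimic control libraries (log2 -0.46 ± 0.13). PTPRG had 1216, 1154 and 1219.8 in inhibitor control libraries, against 1525, 1531 and 1744 in mimic control libraries (log2 -0.42 ± 0.10). All 3 phosphatases were lower without overlap. Over the 4 groups PTPRG averaged 702 ± 31.1 with the inhibitor, 1197 ± 36.8 with the inhibitor control, 1528 ± 199 with the mimic and 1599.9 ± 125 with the mimic control.

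The other members past the threshold between the controls were PARD3, CAMTA1 and ASAP1. PARD3 had 3208, 3449 and 3801 in inhibitor control libraries, against 4324, 4549.8 and 4401 in mimic control libraries (log2 -0.35 ± 0.093). CAMTA1, a calmodulin-binding transcription activator, had 461, 514 and 448 in inhibitor control libraries, against 622, 659.6 and 702 in mimic control libraries (log2 -0.48 ± 0.12). ASAP1 had 728, 712 and 818 in inhibitor control libraries, against 996, 969.7 and 1051 in mimic control libraries (log2 -0.42 ± 0.12). None of these overlapped, and in the inhibitor comparison the same genes had changes of -0.035, 0.074 and 0.078. DMD had 76.99, 65.7 and 75.5 in inhibitor control libraries, against 96.2, 102 and 115 in mimic control libraries (log2 -0.52 ± 0.21), and LPP 77.6, 59.5 and 79.999 in inhibitor control libraries, against 98.4, 87.8 and 139 in mimic control libraries (log2 -0.56 ± 0.24). Both were lower without overlap and not past the threshold. WWOX, MAGI1 and FTO, which were among the lowest with the inhibitor, had changes of only -0.064, -0.024 and -0.056 between the controls.

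**Figure D3:**
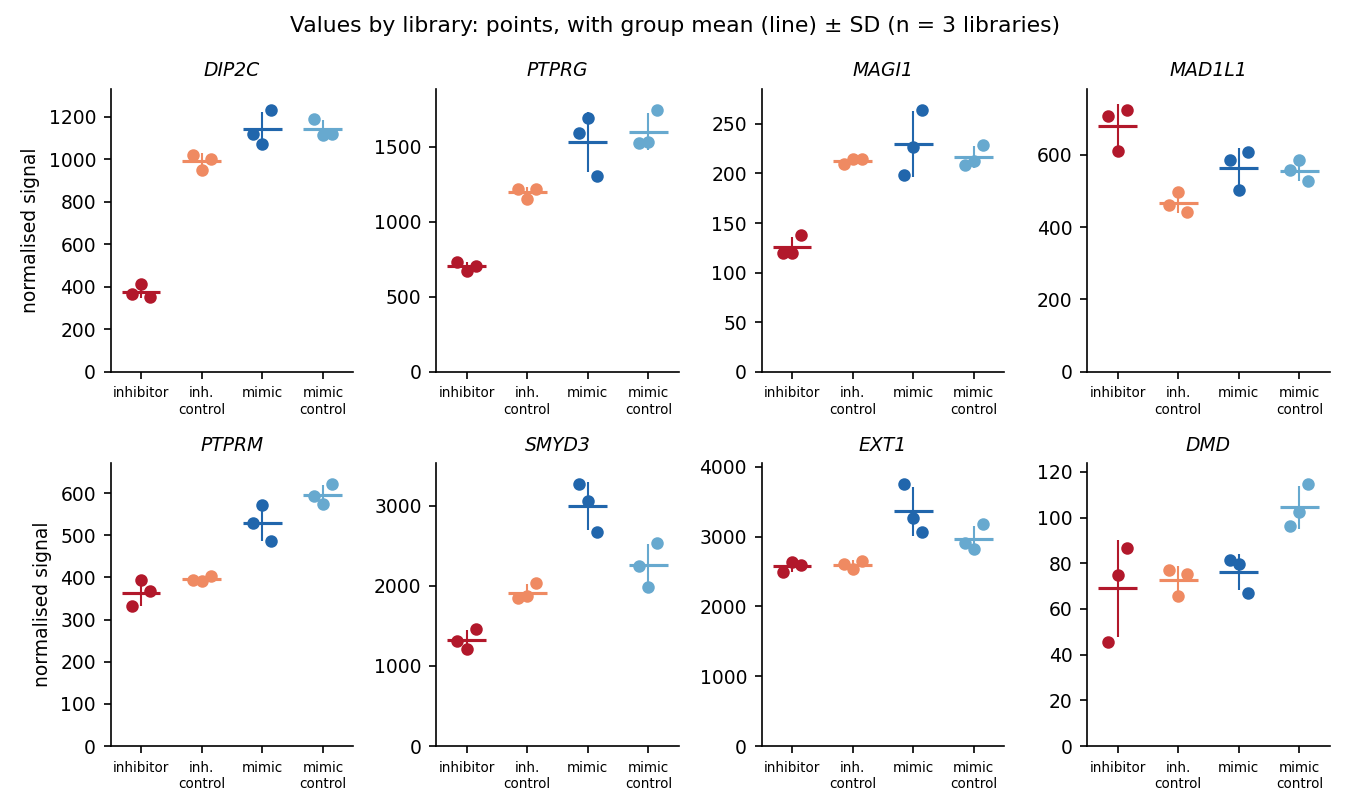
Normalised signal of 8 members in the 12 libraries, as points with the group mean (line) ± SD (n = 3 libraries). DIP2C, PTPRG and MAGI1 are lowest with the inhibitor, PTPRM is lower with the inhibitor control than with the mimic control, and EXT1 is near level in the inhibitor and inhibitor control libraries.

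The mimic comparison was not used to choose the members and was tested, although it shares the mimic control libraries with the comparison of the controls. Here 0 of the 43 members passed the threshold upwards, where 0.686% of all tested genes did, and 0 downwards, where 0.0729% did. By limma at an unadjusted p under 0.05 there were 3 members (6.98%), against 13.2% of all tested genes. With array weights 1 member (SMYD3) passed the adjusted threshold, and the share of all genes is not given for that setting. The median change was log2 0.037, against 0.013 for all tested genes. Of the 43 members 18 were negative (41.9%), near the 47.9% of all tested genes. In 3 members (FBXL17, PRKCA and SMYD3) all mimic libraries were higher, where 9.92% of all genes were, and in 3 (DMD, PTPRM and CDH13) all were lower, where 6.47% were.

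The 3 members with the smallest p were SMYD3, CDH13 and EXT1. SMYD3 had 3269, 3055 and 2676 in mimic libraries, against 2244, 1989.9 and 2533 in mimic control libraries (log2 0.41 ± 0.11, adjusted p = 0.111 by limma, higher in 3 of 3). Its level was lowest with the inhibitor and highest with the mimic. CDH13 had 911, 951 and 933 in mimic libraries, against 1171, 1019.5 and 1092 in mimic control libraries (log2 -0.23 ± 0.092, adjusted p = 0.299 by limma, lower in 3 of 3). EXT1 had 3753, 3266 and 3069.5 in mimic libraries, against 2909, 2817 and 3175 in mimic control libraries (log2 0.18 ± 0.082, adjusted p = 0.378 by limma). The EXT1 groups overlapped. Without mimic replicate 3, SMYD3 passed the threshold (log2 0.49, adjusted p = 0.0249 by limma), and over its 22 alternatives its adjusted p lay between 0.0224 and 0.377 with the change always upwards.

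None of the 5 members with a full seed match passed the test with the mimic, with adjusted p by limma between 0.424 and 0.994. LPP had 121, 119 and 129 in mimic libraries, against 98.4, 87.8 and 139 in mimic control libraries (log2 0.21 ± 0.24). TCF4, a basic helix-loop-helix factor, had 134, 187 and 154 in mimic libraries, against 206, 186 and 168 in mimic control libraries (log2 -0.25 ± 0.19). CUX1, a homeobox factor, had 3021, 2827 and 2543 in mimic libraries, against 2544, 2561 and 2431 in mimic control libraries (log2 0.15 ± 0.075). The groups overlapped in all of these. FAF1, a ubiquitin-binding protein, and DIP2C had changes of log2 0.05 ± 0.11 and log2 -0.0036 ± 0.086. In the inhibitor comparison LPP had a change of -0.63, TCF4 0.075, CUX1 0.052, FAF1 -0.16 and DIP2C -1.39 on the log2 scale. The median inhibitor change was -0.16 in the 5 members with a full match, -0.038 in the 11 with a shorter match and -0.46 in the 27 tested members with none. In the 585 tested genes of 300 kb or more with a 3′ UTR, it was -0.20 with a full match (131 genes). It was -0.18 with a shorter match (150) and -0.15 with none (304). These inhibitor values come from the comparison that chose the list, DIP2C was picked for its fall, and they were not tested. With the mimic the medians in the same order were 0.050, 0.072 and -0.0051 in tested members. They were -0.059, -0.025 and -0.0040 in the 585 genes. The 3 classes of tested members also differed in 3′ UTR length, with medians of 5704, 4178 and 1609 bases. The part of this length was not tested.

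Among the named fragile site and dystrophin genes, DMD had 81.6, 79.7 and 66.98 in mimic libraries, against 96.2, 102 and 115 in mimic control libraries (log2 -0.46 ± 0.21, adjusted p = 0.388 by limma). The DMD groups did not overlap. UTRN, WWOX and FHIT had changes of log2 -0.27 ± 0.24, log2 -0.077 ± 0.13 and log2 -0.22 ± 0.55, with overlap in each. MAGI2 had 25.01, 61.2 and 90.3 in mimic libraries, against 41.1, 78.97 and 153 in mimic control libraries (log2 -0.61 ± 0.59), and thus varied within both groups by more than the groups differed.

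Genes outside the list are given by genomic span for comparison, with no test. With the inhibitor the median change of tested protein coding genes was log2 0.074 under 10 kb (2738 genes), 0.046 at 10 to 30 kb (3965), 0.028 at 30 to 100 kb (4700), -0.035 at 100 to 300 kb (2291) and -0.17 in the 550 genes of 300 kb or more that were not listed. The share past the threshold downwards was 0.292% under 10 kb and 5.09% in these 550 genes. Between the controls the medians in the same order were 0.19, 0.052, -0.10, -0.19 and -0.18, with no further step in the last class. The share past the threshold downwards was 2.12% under 10 kb and 9.64% in the 550 genes. With the mimic the medians were 0.039, 0.033, 0.013, -0.012 and -0.035. Over all 593 genes of 300 kb or more, listed ones included, the mimic median was -0.030, but 0.042 without mimic replicate 3. The sign for these 593 genes thus rests on 1 library. Their median was -0.097 with libraries scaled to equal totals without mitochondrial genes. These settings are not given for the 550 genes alone. The listed genes lay below the unlisted ones of 300 kb or more with the inhibitor (-0.32 and -0.17). The list was chosen on this comparison, and the part of that choice in the gap was not tested.

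**Figure D4:**
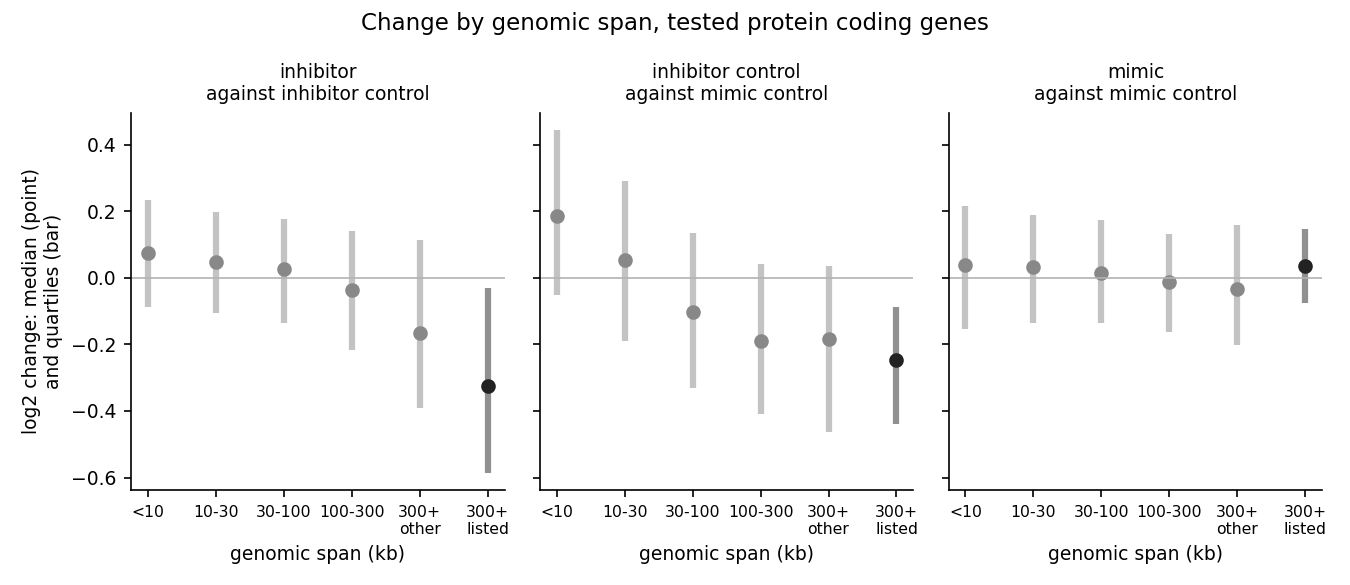
Median log2 change (point) and quartiles (bar) of tested protein coding genes by genomic span in the 3 comparisons, with the 43 listed very long genes as the last point. The inhibitor medians run from 0.074 under 10 kb to -0.17 in the 550 other genes of 300 kb or more, and the mimic medians from 0.039 to -0.035. Over all 593 genes of 300 kb or more, listed ones included, the mimic median is positive (0.042) without mimic replicate 3.

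The medians are also given within limits of signal and of transcript length, as descriptions. Among genes with a mean signal of 100 or more, the inhibitor medians were log2 -0.26 in 32 members, -0.20 in 298 genes of 300 kb or more and 0.068 in 1751 genes under 10 kb. The members' mean signal per kb of their longest transcript had a median of 57.8, against 57.3 in other tested protein coding genes. Among genes of 300 kb or more whose longest transcript was under 3 kb the inhibitor median was -0.075 (69 genes), and at 6 kb or more -0.19 (323 genes). Among genes that span under 100 kb the same transcript classes had 0.085 (5822 genes) and -0.022 (1329 genes). The medians of the listed genes were in the other order, at -0.55 in the 8 with a longest transcript under 3 kb. They were -0.41 in the 5 of 3 to 6 kb and -0.16 in the 30 of 6 kb or more. The 8 genes varied widely, from -0.66 in WWOX to 0.54 in MAD1L1, and this comparison chose the list.

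Within the list, span itself tracked the changes loosely. Spearman's correlation of span with the change was -0.28 in the inhibitor comparison, -0.28 between the controls and -0.42 with the mimic, over the 43 genes. These points share their libraries, and over all 593 tested genes of 300 kb or more the values were -0.14, 0.014 and -0.014 in that order. For the longest intron, the same correlation with the inhibitor change was -0.38 over the 43 genes and -0.18 over the 593. For the length of the longest transcript, it was 0.070 over the 43 genes and -0.089 over the 593. Over all 14287 tested protein coding genes, the correlation with the inhibitor change was -0.15 for span and -0.21 for transcript length, and that with the change between the controls was -0.34 for span and -0.27 for transcript length. With the mimic change it was -0.058 for span and -0.12 for transcript length. These are descriptions with no test.

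The machinery that elongates long transcripts was examined by a list of 48 genes, of which 47 were tested. By limma 0 of the 47 passed in the mimic comparison and 0 in the inhibitor comparison, and 4 in the mimic comparison and 9 in the inhibitor comparison were at an unadjusted p under 0.05, where 13.2% and 14.5% of all tested genes were. Between the controls 2 of the 47 rose (HEXIM1 and SNRNP70), where 4.74% of all tested genes did, and 5 fell (CDK13, AFF1, AFF4, SCAF4 and SCAF8), where 5.38% did. CDK13, a kinase of the polymerase tail, averaged 579 ± 34.7 in inhibitor control libraries and 952 ± 133 in mimic control libraries (log2 -0.71 ± 0.20), and AFF1, a scaffold of the super elongation complex, 402 ± 8.14 in inhibitor control libraries and 644 ± 84.5 in mimic control libraries (log2 -0.67 ± 0.13). The 5 genes that fell span 61.0 kb (SCAF4) to 206 kb (AFF1). HEXIM1, an inhibitor of the elongation kinase, and SNRNP70 span 3.60 and 23.2 kb. A link of span with the changes in this list was not tested. POLR2A, the large subunit of RNA polymerase II, had the lowest inhibitor change in the list, at 28.8 ± 8.83 in inhibitor libraries and 73.9 ± 21.1 in inhibitor control libraries (log2 -1.35 ± 0.34), and it did not pass (adjusted p = 0.0757 by limma).

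Partners of dystrophin and utrophin were examined by a list of 24 genes, of which 18 were tested. By limma 0 passed in the mimic comparison and 0 in the inhibitor comparison, and 2 in the mimic comparison and 3 in the inhibitor comparison were at an unadjusted p under 0.05, near the 13.2% and 14.5% of all tested genes. Between the controls 1 of the 18 rose, where 4.74% of all tested genes did. This was CAVIN1, a coat protein of caveolae, at 25497 ± 544 in inhibitor control libraries and 13935 ± 445 in mimic control libraries (log2 0.87 ± 0.12, adjusted p = 0.00296 by limma). DAG1, dystroglycan itself, averaged 398 ± 14.1 with the inhibitor and 461 ± 39.0 with the inhibitor control, and 421 ± 45.7 with the mimic and 397 ± 17.7 with the mimic control. Of the 13 mitochondrially encoded genes, 0 passed in the mimic comparison and 0 in the inhibitor comparison by limma. At an unadjusted p under 0.05 by limma were 2 in the mimic comparison and 0 in the inhibitor comparison, against the same shares of all genes. Between the controls 1 of the 13, MT-ND4L, fell, where 5.38% of all tested genes did, and 0 rose, where 4.74% did.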

How the data were processed

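RNA-seq values of 12 libraries of transfected SW1353 cells were analysed. Per the labels, the authors used FastQC, Trim Galore, kallisto and sleuth with hg38, and they deposited normalised signal for each Ensembl gene, that is estimated counts divided by a size factor of the library. Versions, the annotation release, read filters and whether the arms were scaled together are not given in the sources used here. Reads of near-identical copies can be shared between genes in such estimates.

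The members, role lists, other lists and tests were chosen with earlier results of these data known. Of 40490 identifiers, 35521 had a symbol and 35493 were in GENCODE 29 (GRCh38), which gave spans, transcripts and 3′ UTRs; promoters and the microRNA were from RefSeq (GRCh38.p14). Values were analysed as log2(value + 0.5), where this pseudocount understates the change of low genes. The filter kept a gene where 6 of the 12 libraries (47% being the set minimum share) reached a value of 5. A model of 4 group means over all 12 libraries was fitted with lmFit and eBayes (trend on) of limma 3.58.1 under R 4.3.3. Tests were two-sided with Benjamini-Hochberg adjustment over 16468 genes and a threshold of 0.05. The procedure was also run on simulated data with independent libraries and the same spread setting for every gene. That setting is simpler than these data, so it does not give the error rate here. Python 3.11.15, numpy 2.4.6, pandas 2.3.3 and matplotlib 3.10.9 made tables and plots. Whether the libraries came from separate transfections is not given in the sources used here, so p-values measure only the spread between libraries. With 3 libraries against 3, an exact permutation test of 1 gene cannot go below 0.1.

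Named genes were DIP2C, the 3 members with the smallest p in the mimic comparison, the 5 lowest and 3 highest by the mean of the inhibitor and control changes, up to 6 members with an 8mer or 7mer-m8 match, the 2 nearest above the span limit, and FHIT, WWOX, DMD and UTRN. Other members were given by role, with values for those past the threshold or used to complete a role, which were chosen after their values were seen. The list of nuclear long non-coding RNAs had 0 of 5 genes matched and was not used here. A result for 1 gene of the other lists is not reported here. GC boxes (GGGCGG, both strands) were in 42.0% of 81 member promoters of 300 bases and in 45.0% of all 35116. Alternatives covered the pseudocount, filter, scaling, libraries in the fit, replicate block, array weights and each library left out.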

Additional observations from a re-analysis of the deposited data

How the results depend on the processing

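The 43 tested members were recomputed under 22 alternatives. In the mimic comparison 0 members passed, except for 1 (SMYD3) with array weights and without mimic replicate 3, and leaving out 1 library at a time gave 0 to 1. When libraries were scaled to equal totals without mitochondrial genes, the mimic median was -0.031 in members and -0.097 in all genes of 300 kb or more, and leaving out 1 library gave -0.040 to 0.042 for that class (0.042 without mimic replicate 3). In the inhibitor comparison 9 members were past the threshold, 15 with array weights and 5 to 13 when leaving out 1 library, with 5 without inhibitor replicate 1, inhibitor control replicate 1 or inhibitor control replicate 3. The member median there lay between -0.36 and -0.21 when leaving out 1 library, lowest without inhibitor replicate 2 and nearest 0 without inhibitor replicate 1. Between the controls 6 were past it, 2 (PTPRM and PTPRG) without a filter on low values, 15 with the 6 libraries alone, 14 with array weights and 1 to 9 when leaving out 1 library, with 2 without inhibitor control replicate 3, 9 without mimic replicate 3 and 1 without any other library of that comparison. The causes were not tested, and the estimation of the array weights stopped before it reached its convergence tolerance. Same-numbered libraries did not deviate together over all tested genes (correlations -0.18 to 0.063). With 3 libraries in a group this does not settle whether equal numbers mark paired samples. With the replicate block 2 members were past the threshold between the controls, 0 with the mimic. Of 372 values of the 17 named genes in the mimic comparison, 17 in 7 genes changed sign, none past the threshold and all with a main change within 0.22 of 0. Counts in the inhibitor and control comparisons describe a list chosen on them. Shares of all tested genes are given for the main fit only, so member counts under the alternatives have no background beside them.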

Other observations

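Among the 550 tested protein coding genes of 300 kb or more that were not listed, PTPRT and SLC35F1 had the lowest means of the inhibitor and control changes of the genes with a symbol, and TMC1, TSPAN8 and RELN the highest. PTPRT, a receptor phosphatase related to PTPRK and PTPRM, averaged 8.14 ± 8.39 with the inhibitor, 37.5 ± 9.67 with the inhibitor control, 140.1 ± 206 with the mimic and 94.0 ± 42.0 with the mimic control (SD, n = 3 each). SLC35F1, a solute carrier family member, averaged 8.14 ± 8.32 with the inhibitor, 12.5 ± 5.58 with the inhibitor control, 27.6 ± 6.61 with the mimic and 34.8 ± 3.17 with the mimic control. RELN, a secreted matrix protein, was low and ran the other way, at 10.8 ± 4.26 with the inhibitor, 5.39 ± 1.28 with the inhibitor control, 6.33 ± 0.721 with the mimic and 2.55 ± 1.21 with the mimic control. None of these genes passed the adjusted threshold by limma in any of the 3 comparisons.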
